A study of Capra hircus with 4 samples.

Results

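Receptors for the transmitters glutamate and γ-aminobutyric acid (GABA) are built from subunits, each encoded by its own gene, and 45 of the 28944 genes in the goat ovary count matrices carry names of such subunits. The members were taken by a rule on gene names, which was set with earlier results of these data known. They are AMPA-type (GRIA, 4 genes), kainate-type (GRIK, 5 genes), NMDA-type (GRIN, 7 genes) and delta-type (GRID, 2 genes) glutamate receptor subunits, metabotropic glutamate receptors (GRM, 8 genes) and GABAA receptor subunits (GABR, 19 genes). Single-nucleus RNA libraries were made from ovaries of 2 Du'an and 2 Nubian goats, 1 library per goat. All goats were about 3 years old and had their estrus synchronized by an intravaginal progesterone device (300 mg, 17 days). The study describes the Du'an goats as monotocous and the Nubian goats as polytocous, so breed, litter size and everything else shared by the goats of a breed cannot be told apart.

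AMPA, kainate and NMDA receptors are cation channels opened by glutamate, and GABAA receptors are chloride channels opened by GABA. Metabotropic glutamate receptors signal through G proteins, and delta receptors, though related to the glutamate channels, bind cerebellins and other extracellular partners. These genes are best known from neurons, but GABA and glutamate receptor transcripts have also been described in endocrine and smooth muscle tissues. In the ovary, granulosa cells surround the oocyte as cumulus cells or line the follicle wall as mural cells, and theca, stroma, vessels and immune cells lie outside the follicle.

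After quality filters 44872 of 48332 nuclei remained, which were 8723 and 9999 nuclei of the Du'an goats and 15848 and 10302 of the Nubian goats (replicate 1 first), with median depths of 1755 to 3317 UMIs (unique molecular identifiers, each standing for 1 captured RNA molecule). Nuclei were clustered without the receptor genes and named from marker lists, so every class name ends in "-like". The mural-like state held no nucleus of Du'an replicate 1, and its subclusters 2, 5 and 9 each came almost wholly from 1 goat (4337 of 4378 nuclei from Nubian replicate 1, 1485 of 1493 from Du'an replicate 2 and 342 of 342 from Nubian replicate 2). The common progenitor-like state was named from its own marker list, at 3117 to 3978 CPM (UMI counts per 1000000) in sum against at most 546 CPM in the other states. Of the 7 markers on this list, 3 were raised in subcluster 3 (3363 nuclei) and 4 in subcluster 10 (96 nuclei). The list was less particular outside the granulosa set, at up to 2527 CPM in pericyte-like, 2519 CPM in epithelial-like and 2631 CPM in fibroblast-like nuclei. A cluster of 3405 nuclei entered the granulosa set by this list alone, since its general granulosa markers did not pass. Neither the granulosa nor the stromal list was among its 2 best-scoring lists. PDGFRA, a stromal marker, was among the leading genes of subcluster 3. Whether these nuclei are granulosa cells was not tested. General granulosa markers of the common progenitor-like state summed to 4569 to 7138 CPM, which overlapped the 2913 to 6201 CPM of smooth muscle-like nuclei. They lay below the 8712 to 9273 CPM of the cumulus-like state. The smooth muscle-like class also carried stromal markers. Library pairs shared 54 to 131 barcodes (0.505 to 1.40% of the smaller library). The doublet caller marked 0 nuclei and was not a working filter, so doublets remained.

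Every level below is in CPM, with UMIs summed over the nuclei of 1 class in 1 goat and divided by the sum of all genes there. Nuclear RNA holds many unspliced molecules, so a long gene can give more UMIs than a short one, and levels were compared between classes within a gene and never between genes. The members gave 152745 UMIs in the kept nuclei, and 31 of them had at least 100. Fewer than 100 UMIs were found for 14 members: GABRD had 0, GABRA6, GABRP and GABRQ had 1 each, GABRR1 had 2, GABRG3 and GRIN3B had 4 each, GRM6 had 5, GRM2 had 9, GRIN1 had 11, GABRR3 had 15, GRIK3 had 24, GRM4 had 43 and GABRR2 had 68. GRIN1 encodes the subunit that conventional NMDA receptors require, and GABRD the δ subunit of GABAA receptors that lie outside synapses. A low count does not show absence at this depth, because molecules were counted from the 3′ end of the RNA and a gene model that misses that end is counted too low.

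**Figure D1:**
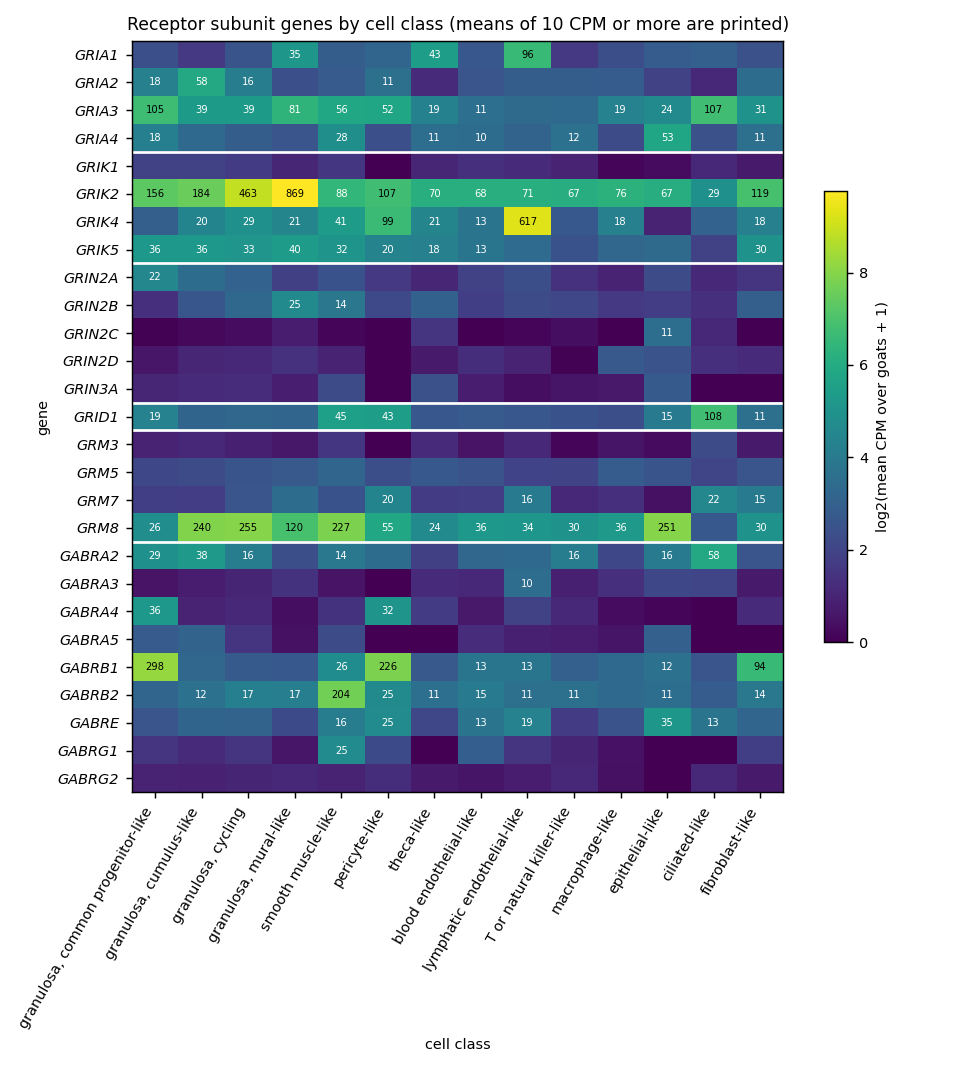
Mean level of 27 receptor subunit genes with at least 100 UMIs (rows, grouped by family) in 14 cell classes (columns); colour is log2(mean CPM over goats + 1) and means of 10 CPM or more are printed. GRIK2 reached its highest mean, 869 CPM, in mural-like granulosa, and GRIK4 its highest, 617 CPM, in lymphatic endothelial-like nuclei; the fibroblast-like column rests on 1 goat and the ciliated-like column on 2.

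The first comparison asked how the members differ among granulosa states. UMI sums per goat and state were fitted by edgeR (quasi-likelihood, goat as a block), each state was set against the mean of the other 3, and p-values were adjusted over all 13116 genes fitted. Of the 45 members, 27 passed the filter on low counts, which a gene high in 1 state can pass through that state alone. At an adjusted p under 0.05, 19 of the 27 were called in at least 1 state, beside 57.7% of all genes fitted. The clusters were built from the same nuclei, though not from these genes, so the p-values are smaller than those of states known in advance. Called higher in the common progenitor-like state were 9 members (background 20.7% of all genes) and lower 4 (18.6%). In the cumulus-like state 6 were higher (10.1%) and 4 lower (9.68%), in the mural-like state 6 were higher (11.5%) and 8 lower (14.1%), and in the cycling state 2 were higher (12.9%) and 1 lower (8.35%). The median log2 fold change of the 27 members was 0.10, -0.17, -0.26 and -0.03 in these states in the same order, beside -0.02, -0.01, -0.04 and -0.04 for all genes. The split by family was uneven: all 6 GABAA members called in the mural-like state were lower there, of 9 fitted, and all 5 called in the common progenitor-like state were higher. These counts are not independent, because a state's reference mean holds the other states. GABRB1 and GABRA4, high in the common progenitor-like state alone, are in both.

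**Figure D2:**
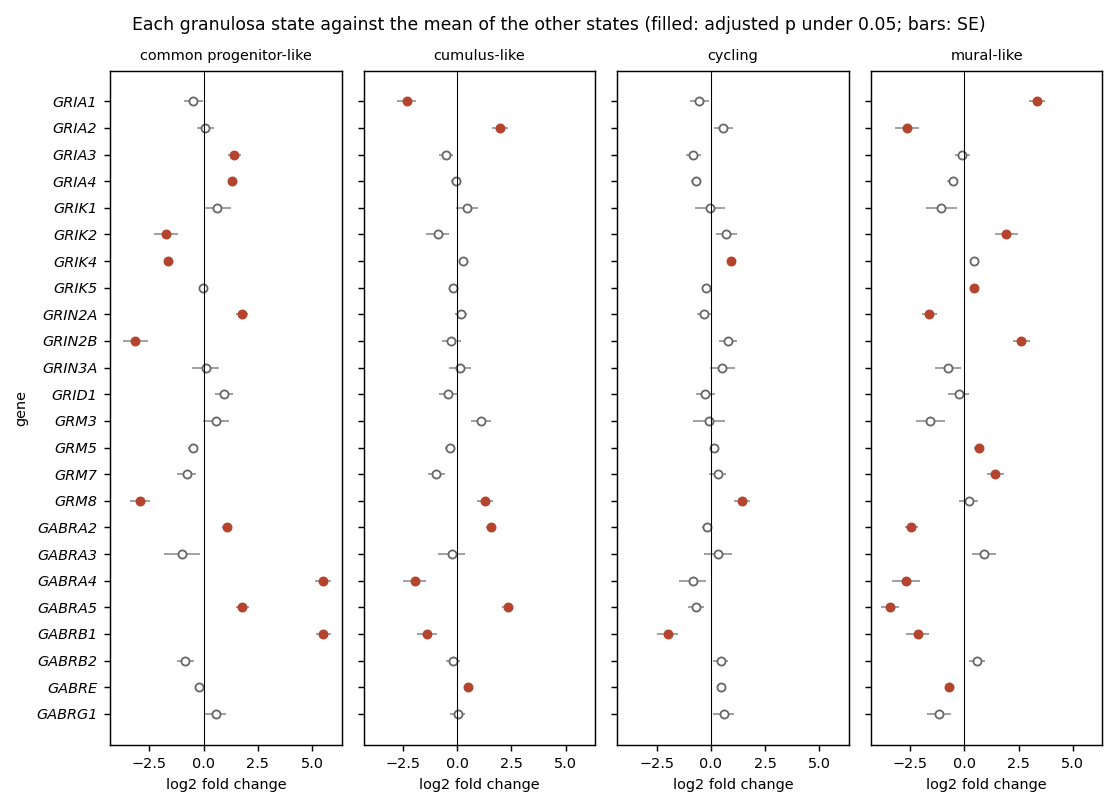
Log2 fold change (x axis) of 24 fitted members (rows) in each granulosa state against the mean of the other states, with bars of 1 SE; filled points passed an adjusted p under 0.05 (edgeR). GABRB1 (5.52) and GABRA4 (5.49) stand farthest to the right in the common progenitor-like panel, and GABRA5, GABRA4, GRIA2 and GABRA2 lie furthest to the left in the mural-like panel.

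GRIK2, the kainate receptor subunit with the most UMIs of all members (51193 in kept nuclei), was highest in mural-like nuclei. It is described in full because its values were seen, since it ranked below the 10 members that the rule named. Its level in mural-like nuclei was 766 CPM in the second Du'an goat and 889 and 952 CPM in the Nubian goats. In cumulus-like nuclei it was 218, 172, 86.4 and 260 CPM (Du'an replicates 1 and 2, Nubian replicates 1 and 2, an order kept below). Common progenitor-like nuclei had 42.8, 411, 122 and 48.8 CPM, and cycling nuclei 251, 474, 793 and 332 CPM. The 3 mural-like values lay above every cumulus-like and common progenitor-like value and overlapped only the cycling value of Nubian replicate 1. Against the mean of the other states GRIK2 was higher in the mural-like state by 1.94 ± 0.51 on the log2 scale (SE, edgeR adjusted p = 0.015). The call was lost without Nubian replicate 2 (1.66, adjusted p = 0.0934) and when the first clustering was coarser (1.09, adjusted p = 0.199).

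Cycling nuclei fell into 2 subclusters, and GRIK2 was higher in one of them in each of the 3 goats with at least 20 nuclei in both; Du'an replicate 1 had 3 nuclei in subcluster 7. Subcluster 7, in which all 7 mural markers were raised, had 993, 877 and 884 CPM in the 3 goats with mural-like nuclei. Subcluster 6, in which 4 of 5 cumulus markers were raised, had 385, 166 and 245 CPM in the same goats. Most of the cycling nuclei of Nubian replicate 1 (842 of 969) were in subcluster 7, and that goat had the highest cycling value. After each nucleus was thinned to 1000 UMIs, GRIK2 was seen in 38.4% of 6037 mural-like nuclei (exact 95% binomial interval 37.1 to 39.6, counting error only), 27.4% of cycling, 10.6% of cumulus-like and 5.82% of common progenitor-like nuclei. T or natural killer-like nuclei, which are not known for this gene, had 6.36% (5.403 to 7.43), which overlaps the pooled common progenitor-like share. By goat the common progenitor-like shares were 3.97, 17.9, 10.9 and 3.29% and the T or natural killer-like shares 3.23, 6.21, 12.0 and 1.35%, so Du'an replicate 2, with 411 CPM, was well above that class and Nubian replicate 1 was not. Unthinned, the mural-like and T or natural killer-like shares were 65.6% and 13.5%, at median depths of 4544 and 2288 UMIs.

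GABRB1 and GABRA4, which encode the β1 and α4 subunits of GABAA receptors, were the members with the largest contrasts between states. In common progenitor-like nuclei GABRB1 stood at 158, 553, 386 and 94.4 CPM, and in no other state did a goat exceed 12.0 CPM. GABRA4 stood at 56.4, 22.4, 52.5 and 11.7 CPM there, against at most 2.43 CPM in any goat and other state. Neither gene's values overlapped between the common progenitor-like state and the others. The log2 fold changes were 5.52 ± 0.36 for GABRB1 (edgeR adjusted p = 2.26e-07) and 5.49 ± 0.36 for GABRA4 (edgeR adjusted p = 2.47e-07), and both calls held under all 14 alternatives tried. At these levels GABRA4 passed the filter on low counts largely through this state. Neither its p-value nor its held calls are separate support. The pair lies side by side in the RefSeq table of the goat genome, on chromosome 6, with no protein-coding gene between them. Their UMIs were spread unevenly: 67 of 3459 common progenitor-like nuclei (1.94%) carried at least 50% of the GABRB1 UMIs of that state, with up to 81 in 1 nucleus. Part of the Nubian replicate 1 value came from subcluster 10, 96 nuclei of that goat alone with 1367 CPM of GABRB1, and without them the same goat had 242 CPM.

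**Figure D3:**
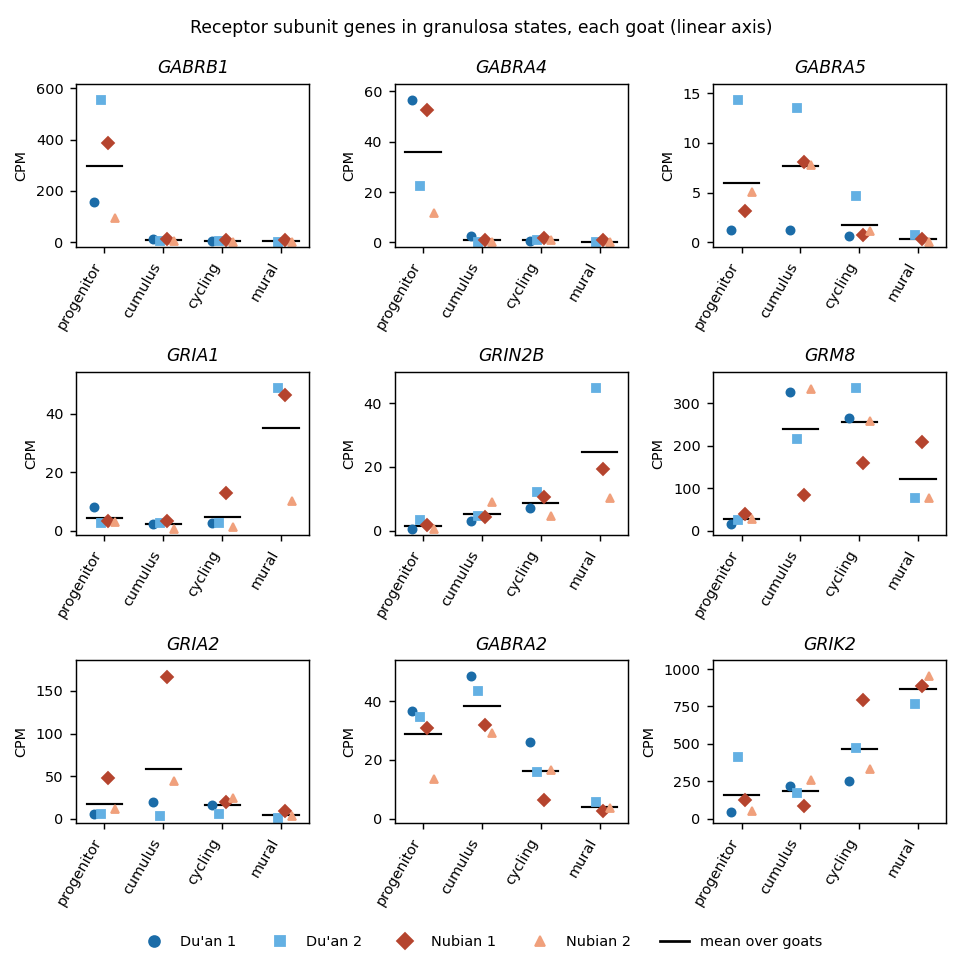
Level (CPM, linear axis from 0) of 9 members, 8 of them named by the rule and GRIK2 added, in 4 granulosa states; each symbol is 1 goat and each bar the mean over goats, with no mural-like value for Du'an replicate 1. GABRB1 and GABRA4 are raised in the progenitor state in all 4 goats, and GRIK2 in the mural state in the 3 goats that have one.

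GABRA2 and GABRA5, which encode the α2 and α5 subunits, had another pattern: they were raised in cumulus-like as well as common progenitor-like nuclei and low in mural-like nuclei. The level of GABRA2 was 48.5, 43.5, 31.9 and 29.3 CPM in cumulus-like nuclei and 36.6, 34.7, 31.0 and 13.4 CPM in common progenitor-like nuclei. Its mural-like values were 5.78, 2.60 and 3.74 CPM, below every value of the other states, and the mural-like contrast was -2.44 ± 0.31 (edgeR adjusted p = 0.000247). The cumulus-like contrasts were 1.55 for GABRA2 and 2.33 for GABRA5, and the common progenitor-like ones 1.063 and 1.79. GABRA5 was scarce, at 1.21, 13.5, 8.10 and 7.76 CPM in cumulus-like nuclei. In mural-like nuclei it had 7, 7 and 0 UMIs, or 0.697, 0.319 and 0 CPM, and its contrast there was -3.43 ± 0.40 (edgeR adjusted p = 0.000152). Du'an replicate 1 was the lowest goat for GABRA5 in the cumulus-like state, and had no mural-like nuclei to compare.

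GRM8, a metabotropic glutamate receptor that lowers cyclic AMP, was scarce in the common progenitor-like state. That state had 15.2, 25.2, 38.7 and 26.2 CPM. Cumulus-like nuclei had 325, 217, 84.2 and 333 CPM, cycling nuclei 266, 335, 159 and 258 CPM, and mural-like nuclei 76.6, 208 and 76.5 CPM. All common progenitor-like values lay below all others, by -2.92 ± 0.47 against the mean of the other states (edgeR adjusted p = 0.000319). The order of cumulus-like and mural-like nuclei was not the same in every goat: cumulus-like was higher in Du'an replicate 2 and Nubian replicate 2 and lower in Nubian replicate 1. In that goat most cumulus-like nuclei were in subcluster 4 (1996 of 2093), with 61.5 CPM, while its 73 nuclei in subcluster 1 had 580 CPM.

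GRIA1 and GRIN2B, an AMPA and an NMDA receptor subunit, were raised in mural-like nuclei along with GRIK2. GRIA1 stood at 48.7, 46.3 and 10.2 CPM in mural-like nuclei of these 3 goats. Elsewhere in the granulosa set it reached at most 12.8 CPM, in cycling nuclei of Nubian replicate 1, so the lowest mural-like value overlapped the other states. Its mural-like contrast was 3.35 ± 0.37 (edgeR adjusted p = 0.00013). GRIN2B had 44.7, 19.3 and 10.2 CPM in mural-like nuclei and 0.547, 3.40, 1.76 and 0.391 CPM (3 to 5 UMIs per goat) in common progenitor-like nuclei. Both ranges overlapped other states. Du'an replicate 2 had 10.55 and 22.1 CPM in cycling subclusters 6 and 7. The lowest value outside the common progenitor-like state was 3.12 CPM. The GRIN2B contrasts were 2.63 ± 0.40 in the mural-like state (edgeR adjusted p = 0.000613) and -3.15 ± 0.56 in the common progenitor-like state (edgeR adjusted p = 0.000714). GRIN2A, another NMDA subunit, went the other way, higher in the common progenitor-like state by 1.76 ± 0.27 and lower in the mural-like state by -1.61 ± 0.35 (edgeR adjusted p = 0.000259 and 0.00546).

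GRIA2, the AMPA subunit that sets calcium permeability, differed widely between goats. Cumulus-like nuclei had 19.9, 2.91, 167 and 44.1 CPM, with Nubian replicate 1 far above the rest. Common progenitor-like nuclei had from 5.602 CPM in Du'an replicate 1 to 48.2 CPM, cycling nuclei 15.8, 5.04, 20.1 and 24.9 CPM, and mural-like nuclei 0.498, 9.03 and 3.21 CPM. Within each of the 3 goats with mural-like nuclei the cumulus-like value was the higher. The cumulus-like contrast was 1.97 ± 0.35 (edgeR adjusted p = 0.0026) and the mural-like one -2.64 ± 0.56 (edgeR adjusted p = 0.00438), the latter lost when the goat was left out of the model (adjusted p = 0.147). In Nubian replicate 1 GRIA2 was not limited to subcluster 4, where it was the first of the leading genes: it had 167 CPM there, 164 CPM in subcluster 1, 149 CPM in subcluster 8 and 100 CPM in cycling subcluster 6. The same goat had 9.04 CPM in mural-like subcluster 2 and 9.31 CPM in cycling subcluster 7.

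**Figure D4:**
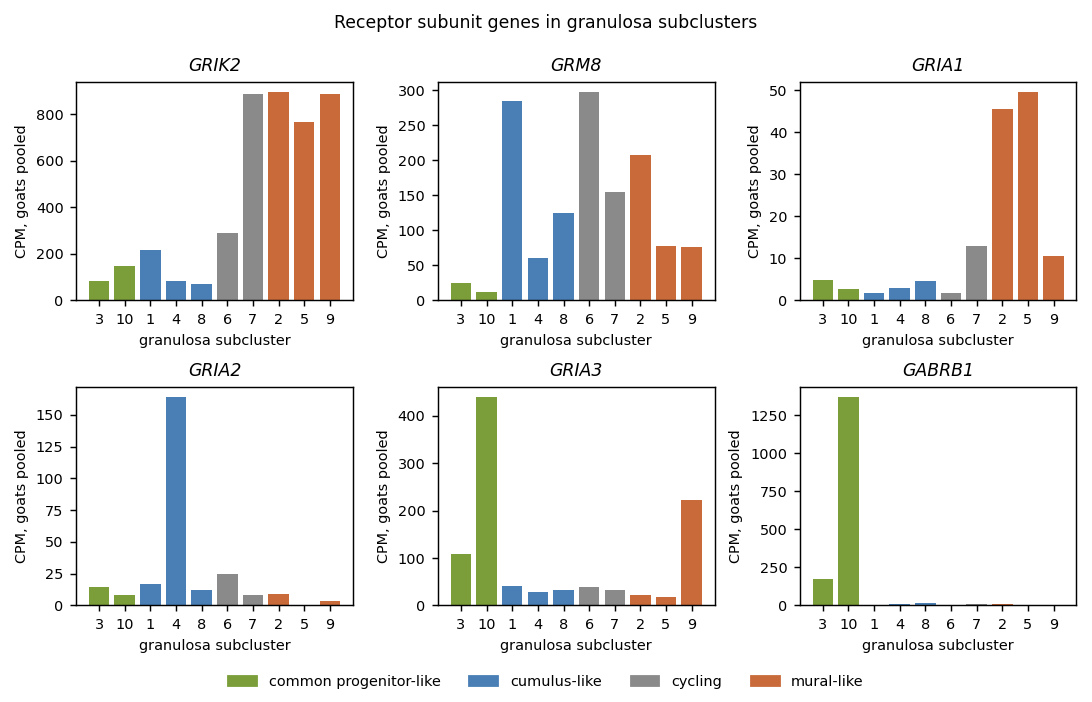
Level (CPM, goats pooled, bars from 0) of 6 members in the 10 granulosa subclusters, coloured by the state each was assigned to. GRIK2 is above 700 CPM in mural-like subclusters 2, 5 and 9 and in cycling subcluster 7, GRIA2 reaches 164 CPM in subcluster 4, and GABRB1 1367 CPM in subcluster 10; subclusters 2, 4, 5, 9 and 10 each came almost wholly from 1 goat.

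A further 8 members called between states were GRIA3, GRIA4, GRIK4, GRIK5, GRIN2A, GRM5, GRM7 and GABRE. GRIA3 and GRIA4 were higher in the common progenitor-like state (1.41 and 1.31 on the log2 scale). Among mural-like subclusters GRIA3 was highest in subcluster 9 of Nubian replicate 2, at 223 CPM, against 21.8 and 17.5 CPM in subclusters 2 and 5 in the goats that held most of their nuclei. That goat was also the highest in common progenitor-like subcluster 3 (190 CPM, at most 90.5 CPM in the others). In cycling subcluster 7 it had 245 CPM, against at most 19.7 CPM in the others. Goat and mural-like subcluster cannot be told apart here. GRIK4 was lower in the common progenitor-like state (-1.65) and higher in cycling nuclei (0.95). GRM7, GRM5 and GRIK5 were higher in the mural-like state (1.42, 0.69 and 0.44), and GABRE was higher in the cumulus-like (0.48) and lower in the mural-like state (-0.72). GABRA3, GABRB2, GABRG1, GRID1, GRIK1, GRIN3A and GRM3 were among the fitted members that passed the threshold in no state.

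Other genes of glutamate and GABA signalling were taken from a list of 61, of which 60 were in the files and 34 were fitted. In the common progenitor-like state 9 of the 34 were higher and 6 lower (background 20.7 and 18.6% of all genes), in the cumulus-like state 6 and 5 (10.1 and 9.68%), in the mural-like state 4 and 7 (11.5 and 14.1%), and in the cycling state 2 and 4 (12.9 and 8.35%). With so few genes these counts are not read as a result about the list. CBLN2, a cerebellin that binds delta receptors, was at 8.33, 138, 15.5 and 28.2 CPM in common progenitor-like nuclei and at most 1.49 CPM in any goat and other state (6.64 ± 0.47, edgeR adjusted p = 3.76e-07). At these levels CBLN2 passed the filter on low counts largely through the common progenitor-like state, so its p-value is not separate support. NETO1, an auxiliary kainate receptor subunit, was also higher there (3.38 ± 0.48), and the scaffold SHANK2 and ABAT, which breaks GABA down, were lower (-2.62 ± 0.45 and -1.94 ± 0.21). In cumulus-like nuclei the AMPA receptor partners GRIP1 and SHISA6 were higher (1.81 ± 0.36 and 1.57 ± 0.25) and CBLN2 and SHISA9 lower (-2.98 ± 0.85 and -1.30 ± 0.40). The CBLN2 contrast was also negative in mural-like (-2.47) and cycling nuclei (-1.19). Each of these reference means holds the common progenitor-like state, so the cumulus-like call restates the rise there and shows no separate loss. GRIP1 in cumulus-like nuclei ran from 35.5 CPM in Du'an replicate 1 to 604 CPM in Nubian replicate 2. Mural-like nuclei had more of the metabotropic GABA receptor subunit GABBR2 (1.01 ± 0.28) and less GRIP1 (-2.42 ± 0.52) and NETO2 (-1.57 ± 0.51). In cycling nuclei SHANK2 and ABAT were higher (1.10 ± 0.35 and 0.69 ± 0.18) and the scaffolds HOMER1 and HOMER3 lower (-1.41 ± 0.19 and -1.004 ± 0.30). SHANK2 and ABAT were also called higher in cumulus-like nuclei (1.43 and 1.19), and HOMER3 was called lower there (-0.96). The reference mean holds the common progenitor-like state, in which SHANK2 and ABAT were low and HOMER3 was called higher. The cycling calls of SHANK2, ABAT and HOMER3 are thus not particular to cycling nuclei. None of the 4 vesicular transporters, which load glutamate or GABA into vesicles, passed the filter in the fit of states.

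The second comparison asked where the members lie among all cell classes. Sums of 13 classes (the fibroblast-like class, with a sum in 1 goat only, was left out) were fitted in the same way over 14897 genes, each class against the mean of the other 12. Here too a gene high in 1 class can pass the filter on low counts through that class alone. All 28 members fitted were called in at least 1 class, as were 95.7% of all genes, so the count says nothing particular about the members. By class, smooth muscle-like nuclei had 15 members higher and 0 lower (background 20.3 and 3.61%). Macrophage-like nuclei had 1 higher and 8 lower (31 and 21.5%), and T or natural killer-like nuclei 0 and 10 (27.1 and 24.2%). Between these lay lymphatic endothelial-like (6 higher, 3 lower; 17.6 and 7.75%), pericyte-like (6 and 1; 7.79 and 5.08%), epithelial-like (5 and 2; 15 and 9.93%), ciliated-like (5 and 2; 16.5 and 9.19%), blood endothelial-like (2 and 2; 20.5 and 9.34%) and theca-like nuclei (1 and 2; 7.38 and 10.5%). Against all classes, 11 members were higher and 4 lower in the common progenitor-like state (20.3 and 10.1%), 8 and 2 in the cumulus-like (23.1 and 12.6%), 10 and 4 in the mural-like (20.2 and 13.4%) and 7 and 1 in the cycling state (19.9 and 16.5%).

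Lymphatic endothelial-like nuclei stood out by GRIK4, a kainate receptor subunit. It measured 468, 542, 606 and 851 CPM there, and at most 174 CPM in any goat and other class, in pericyte-like nuclei of Du'an replicate 2. In blood endothelial-like nuclei it ran from 6.92 to 25.4 CPM. The contrast was 5.36 ± 0.18 (edgeR adjusted p = 1.77e-28), and over the 12 alternatives it ran from 5.23 to 5.61. With nuclei thinned to 1000 UMIs, GRIK4 was seen in 33.8% of 1263 lymphatic endothelial-like nuclei (31.2 to 36.5) and in 0.43% of T or natural killer-like nuclei. At full depth these shares were 49.6 and 1.2%, with median depths of 2016 and 2288 UMIs. GRM4, a metabotropic receptor of the same group as GRM8, had 10, 11, 9 and 3 UMIs in lymphatic endothelial-like nuclei, or 33 of its 43, and no other class reached 0.8 CPM in any goat (6.45 ± 0.53, edgeR adjusted p = 8.47e-11). At these levels GRM4 could pass the filter only through this class, so its p-value is not separate support. GRIA1 was also called higher (3.73 ± 0.42, edgeR adjusted p = 4.16e-10), from 21.7 CPM in Du'an replicate 2 to 226 CPM in Du'an replicate 1, and so was GABRA3 (8.54 to 14.0 CPM). The GRIA1 values overlapped those of mural-like (up to 48.7 CPM) and theca-like nuclei (up to 96.4 CPM). Of the 1570 lymphatic endothelial-like nuclei, 11 carried at least 50% of the GRIA1 UMIs of that class, with up to 40 in 1 nucleus. SHANK3, a postsynaptic scaffold, was at 198 to 254 CPM in lymphatic endothelial-like nuclei and at 123 to 251 CPM in blood endothelial-like nuclei. HOMER3 was at 28.2 to 43.6 CPM in lymphatic endothelial-like nuclei and at most 2.75 CPM in blood endothelial-like nuclei.

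**Figure D5:**
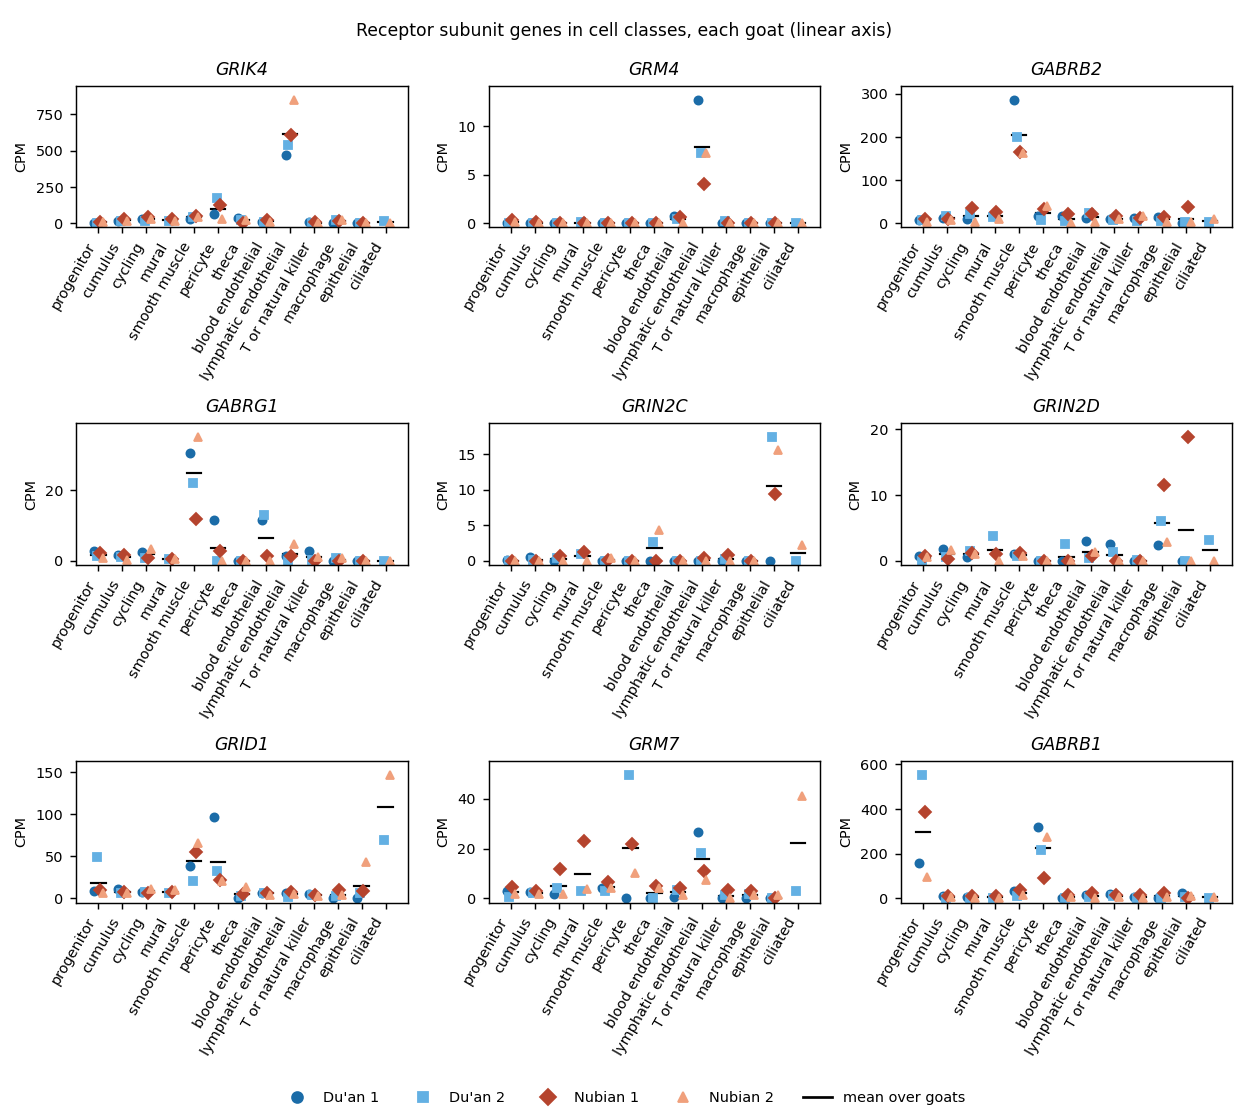
Level (CPM, linear axis from 0) of 9 members in 13 cell classes; each symbol is 1 goat and each bar the mean over the goats with at least 20 nuclei of that class. GRIK4 and GRM4 are raised in lymphatic endothelial-like nuclei and GABRB2 in smooth muscle-like nuclei without overlap with any other class, while GRIN2C, GRIN2D and GRM7 rest on few UMIs.

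In smooth muscle-like nuclei 5 of the 10 GABAA receptor genes fitted were called higher (background 20.3% of all genes). The largest contrasts were those of GABRB2 and GABRG1, which encode the β2 and γ1 subunits. GABRB2 was at 287, 201, 165 and 163 CPM, and in no other class did a goat exceed 40.8 CPM (4.24 ± 0.23, edgeR adjusted p = 3.2e-20). GABRG1 stood at 30.6, 22.0, 12.0 and 35.0 CPM, overlapping only blood endothelial-like values of up to 13.1 CPM (5.19 ± 0.41, edgeR adjusted p = 2.48e-13). After thinning, GABRB2 was seen in 15.7% of 4565 smooth muscle-like nuclei (14.7 to 16.8) and in 0.69% of T or natural killer-like nuclei. Thinning left out 4258 shallower smooth muscle-like nuclei, and the unthinned shares were 16.6 and 1.78% at median depths of 1029 and 2288 UMIs. GRM8 (156, 348, 293 and 112 CPM) and the delta receptor gene GRID1 (39.0, 20.6, 55.3 and 65.5 CPM) were also called higher (2.10 ± 0.27 and 1.99 ± 0.29). The summed level of neuron markers was 929 to 1389 CPM in these nuclei and at most 751 CPM in every other class and goat. Of that list, 5 of the 8 markers in the files had UMIs in smooth muscle-like nuclei, and PRPH, TH and DBH were at 0, and their part in these results was not tested.

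Pericyte-like nuclei shared GABRB1 with the common progenitor-like state, at 321, 215, 93.2 and 275 CPM from 26 to 56 UMIs per goat (3.97 ± 0.35, edgeR adjusted p = 1.27e-12). These values overlapped the 94.4 to 553 CPM of the common progenitor-like state and the 93.7 CPM of the fibroblast-like cluster, which came from Nubian replicate 1, and lay above every other class. GABRA4, its neighbour, had 20, 0, 5 and 0 UMIs in pericyte-like nuclei, or 114, 0, 13.7 and 0 CPM. It was called higher (4.29 ± 0.66, edgeR adjusted p = 2.4e-06), but not without Du'an replicate 1 (2.65, adjusted p = 0.157). Genes next to each other did not always go together: of the chromosome 6 group, GABRG1 was highest in smooth muscle-like nuclei, GABRA2 in ciliated-like nuclei, and GABRA4 and GABRB1 in the common progenitor-like state.

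Epithelial-like nuclei, of which Nubian replicate 2 gave 393 of 544, had more GRM8 and 2 NMDA receptor genes. GRM8 was at 66.6, 276, 178 and 482 CPM (2.36 ± 0.30, edgeR adjusted p = 1.76e-08). These values overlapped those of cumulus-like, mural-like, cycling and smooth muscle-like nuclei, and GRM8 was called higher in 5 classes in all. GRIN2C, an NMDA subunit, had 0, 8, 1 and 34 UMIs, or 0, 17.4, 9.39 and 15.6 CPM (5.86 ± 0.59, edgeR adjusted p = 2.99e-10). In no other class did a goat exceed 4.38 CPM, so GRIN2C passed the filter largely through this class. Its p-value is not separate support. GRIN3A had 0, 5, 0 and 27 UMIs (4.29 ± 0.70, edgeR adjusted p = 4.61e-06), and without Nubian replicate 2 its call was lost (3.27, adjusted p = 0.0914). A goat of another class reached 17.4 CPM of GRIN3A, against at most 12.4 CPM in epithelial-like nuclei. NETO1 was at 160, 322, 46.9 and 461 CPM in these nuclei. In ciliated-like nuclei, measured in Du'an replicate 2 and Nubian replicate 2, GRID1 was at 69.7 and 147 CPM (3.48 ± 0.46, edgeR adjusted p = 3.19e-08), and GRM7 at 3.17 and 41.3 CPM from 1 and 18 UMIs (3.31 ± 0.69, edgeR adjusted p = 0.000154). Both genes overlapped other classes, in which a goat reached 97.3 CPM of GRID1 and 49.7 CPM of GRM7.

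The other classes had few members called higher. GRIN2D, an NMDA subunit, was the only one in macrophage-like nuclei, with 1, 15, 11 and 4 UMIs or 2.35, 6.03, 11.6 and 2.85 CPM, overlapping other classes (2.98 ± 0.58, edgeR adjusted p = 3.19e-05). GRIA1 was the only one in theca-like nuclei, with 0, 37, 6 and 10 UMIs or 0, 96.4, 30.7 and 43.8 CPM (2.72 ± 0.60, edgeR adjusted p = 0.000697), and its call was lost without Du'an replicate 2 (1.76, adjusted p = 0.199). Blood endothelial-like nuclei had GABRG1 at 11.5, 13.1, 1.37 and 0 CPM (3.30 ± 0.61, edgeR adjusted p = 4.09e-05), higher in both Du'an than in both Nubian goats. GRM4 was called there too on 1, 1, 1 and 0 UMIs (edgeR adjusted p = 0.0308), and the call was lost under 7 of 12 alternatives, with DESeq2 among them. In T or natural killer-like nuclei the 10 members called lower included GABRE (-2.70 ± 0.41) and GRIK4 (-2.16 ± 0.39). Markers of B or plasma cells summed to 268 to 1082 CPM in macrophage-like and 269 to 499 CPM in T or natural killer-like nuclei. In every other class and goat they reached at most 69.6 CPM. Whether B or plasma cells had a part in the GRIN2D call was not tested.

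A further 3777 nuclei formed a cluster that took no name, with RSPO2 and PLPP4 among its leading genes and drawn mainly from Du'an replicate 1 (1779) and Nubian replicate 2 (1949). Its GABRA2 was at 43.2 and 9.74 CPM in those goats, within and below the range of the cumulus-like and common progenitor-like states. GRM8, at 21.8 and 43.8 CPM there, lay near the common progenitor-like level, but the 31 nuclei of Du'an replicate 2 had 258 CPM (40 UMIs), near the cumulus-like level. GABRB1, at 16.9 and 7.37 CPM, lay near the cumulus-like level. GRIK2 was at 66.4 and 209 CPM, and at 271 CPM in Du'an replicate 2. When the cluster was counted as common progenitor-like, 18 of 26 members fitted were called between states, as were 7100 of 13033 genes.

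The third comparison set the 2 Nubian against the 2 Du'an goats within each of 11 classes in which all 4 had at least 20 nuclei. edgeR called 0 of the 132 tests of members and 0 of 97262 tests of all genes (0%). At an unadjusted p under 0.05, 15 tests of members (11.4%) passed, beside 4.23% of all tests, and DESeq2 called 1 of the members. GRIK1 in cumulus-like nuclei, at 1.04 and 1.04 against 4.22 and 4.94 CPM, had an unadjusted p of 0.00299 (edgeR, adjusted p = 1) and was higher in both Nubian goats. In the common progenitor-like state, the only other class where GRIK1 was tested, it went the other way (-1.205, edgeR unadjusted p = 0.165). In simulated cumulus-like sums of this size edgeR recovered 81.8% of genes changed 4-fold and 10.4% of genes changed 2-fold. These were 81 and 10 genes, and 24 unchanged genes were also called, more than an adjusted p under 0.05 should allow. A breed difference of 2-fold would thus mostly not be seen in cumulus-like nuclei. Only that class was simulated, so the shares do not carry over to classes with fewer nuclei. The changed genes were drawn at random from all genes fitted, so the shares do not carry over to the members either. Between the real goats, GRIA2 in cumulus-like nuclei differed by 3.28 ± 1.04 on the log2 scale and was not called.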

How the data were processed

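Per the labels and the paper, the authors made droplet 3′ libraries and counted UMIs with Cell Ranger (version 5.0.0 in the submitters' processing notes; the matrix headers name 3.1.0). The deposited values are raw counts per gene and nucleus, not normalized; reads were mapped to an NCBI goat genome, whose build name was not given in the sources used here. The authors also deposited 2 tables of their own marker genes (natural-log fold change, p-values and shares of nuclei per granulosa subtype and follicle stage), which were not used. The name table was RefSeq assembly ARS1.2, and all 45 members were found in it.

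Nuclei were kept within 2 SD of the library mean of UMIs and of genes and at up to 20% mitochondrial UMIs (13 protein-coding genes). Scrublet (scanpy 1.11.5) marked 0 nuclei. Clustering used 2000 variable genes without members or pathway genes, 30 principal components, 20 neighbours and Leiden resolution 0.8 (0.5 for granulosa). A class needed at least 3 markers of its list at 10 CPM and a log2 fold of 1 against the other clusters, and a mean of 0.5; clusters with no other name entered the granulosa set by the granulosa or the common progenitor list, each against the clusters already named. The thresholds were chosen with the data in view, and 7605 nuclei stayed unnamed. UMIs were summed per goat and class (at least 20 nuclei) and fitted with edgeR 4.0.16 (R 4.3.3; quasi-likelihood, TMM, filterByExpr, Benjamini-Hochberg over all genes fitted); SE is the log2 fold change over the root of F. The fits were tested on simulated counts. DESeq2 1.42.0 was an alternative.

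The members, marker lists, pathway list and tests were chosen with earlier results of these data known. Named members were the 10 with the largest called contrast between states, up to 2 called higher per other class, and any called between breeds. Values of members outside this rule were also given. Among them were GRIK2, the further members called between states, and GRIK1 and GRIA2 between breeds, where edgeR called none. In lymphatic endothelial-like nuclei they were GRIA1 and GABRA3, and in smooth muscle-like nuclei GRM8 and GRID1. GRM8 in epithelial-like and GABRE and GRIK4 in T or natural killer-like nuclei were others. Named pathway genes were up to 2 per direction and state. SHANK3, HOMER3 and NETO1 in other classes were added after their values were seen, as were SHANK2, ABAT and HOMER3 in further states. UMIs are not free of ambient RNA, and intervals cover counting error only. Nuclei of a goat are not replicates. Some genes count in the totals but are not reported here by name.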

Additional observations from a re-analysis of the deposited data

Results flagged for a closer look

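Among 39 groups of 4 goats, 5 held a goat whose gap to the next exceeded Dixon's 95% critical value; chance flags about 1 group in 20. In the common progenitor-like state Nubian replicate 1 stood apart for GRIA2 (48.2 CPM) and Du'an replicate 1 for GRIA1 (7.92 CPM). In cycling nuclei Nubian replicate 1 stood apart for GRIA1 (12.8 CPM) and Du'an replicate 2 for GABRA5 (4.68 CPM). In pericyte-like nuclei Du'an replicate 1 stood apart for GABRA4 (114 CPM).

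In 1 of 27 comparisons of states the goats of the breeds moved in opposite directions. GABRA5 in common progenitor-like against cumulus-like nuclei had a mean log2 ratio (with 1 CPM added) of 0.045 in the Du'an goats and -0.83 in the Nubian goats. The difference was not tested.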

How the results depend on the processing

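Between states, 19 of 27 members fitted were called, beside 7566 of 13116 of all genes. Under the alternatives it was 15 to 19, the lowest being 15 of 22 with the first clustering coarser (5315 of 12549). With 1 goat left out it was 16 to 17 of 25 to 28 fitted, beside 5255 to 6341 of all genes. Between classes it was 28 of 28 (14250 of 14897). The alternatives gave 27 to 33, the highest being 33 of 43 with no filter on low counts (16942 of 21686). Between breeds 0 members were called, but 1 of 26 with DESeq2 (357 of 14429 of all genes), 9 of 43 with no filter on low counts (1363 of 21461) and 2 of 26 with the highest doublet scores removed (78 of 14449); the cause was not tested. Replicate numbers are shared between breeds, but these are different goats, and the numbers are not known to pair them. The correlation of same-numbered deviations ran from -0.199 to 0.285 over classes. It rests on the same 4 libraries in every class, so it cannot decide whether the numbers pair goats. With the replicate block 0 members were called. For named members, 150 of 154 results of states and 152 of 162 of classes kept direction and side of the threshold, 14 lost the call and 0 reversed. Levels (113 results, thinned or without 1 goat) moved by under 1 SD. Leaving out 1 goat cannot move a mean by 1 SD of the same goats. Only the thinned levels could have failed, so the leave-one-out part says nothing about robustness. Rare members rest on few UMIs, and mural-like nuclei on 3 goats.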
